A study of Mus musculus with 12 samples.

Results

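The Ebf2-EGFP+-enriched lncRNAs are 50 transcripts, of 49 genes, out of the 200 lncRNA transcripts in the deposited lncRNA table. A transcript was taken when its mean FPKM (mapped fragments scaled to transcript length and to library size) was above 1 in Ebf2-EGFP+ cells and the ratio of the means of the 2 populations, with 1 added to each, was at least 2 at 1 or more stages. Of 58 such transcripts, 5 were left out because they met the mirrored condition for Ebf2-EGFP- cells (a ratio of at most 0.5) at another stage, and the 3 lncRNAs Lhx1os, Gm27199 and 2610035F20Rik were left out by name. The members were thus chosen by their measured levels in both populations at all stages, and every difference between the populations in a member is given as a description without a test.

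The libraries came from cerebral cortex of embryos of the mouse line Tg(Ebf2-EGFP)FB58Gsat, in which a bacterial artificial chromosome (BAC) places EGFP under the control of Ebf2 regulatory sequence. Dissociated cells were separated by fluorescence into Ebf2-EGFP+ and Ebf2-EGFP- cells on embryonic days E11.5, E13.5 and E15.5, with 2 libraries in each of these 6 groups. EGFP-carrying embryos of several dams were combined for each experiment, so a library is a pool and both populations carry the transgene. Ebf2-EGFP- cells are all remaining cells of the dissected cortex and not 1 cell type.

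Long noncoding RNAs are transcripts without a recognised protein product that can act on chromatin, on neighbouring genes or on other RNAs, and many are transcribed next to a coding gene or from its opposite strand. Cajal-Retzius (CR) neurons are early-born neurons of the outermost cortical layer that secrete Reelin and guide the layering of later neurons. Both CR and subplate neurons belong to the preplate, where the transcription factor Ebf2 is expressed.

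The start regions of 4 members are shown first because their neighbouring coding genes carry a comparison reported further on, or, for Gm28050, because it had the highest ratio. The first 2 runs are the whole interval between the start of the lncRNA and the start of the coding gene that points away from it, written on the strand of the coding gene. They lie at chr15:101224122-101224187 (+ strand, A330009N23Rik and Grasp) and chr6:61180271-61180323 (+ strand, A730020E08Rik and Ccser1). The other runs reach from 250 bases before the start to 50 bases into the lncRNA on its own strand, at chr11:24076309-24076608 (+ strand, Gm12063, near Bcl11a) and chr5:106574669-106574968 (- strand, Gm28050). All runs are from GRCm38 (the assembly also called mm10), contain no base of a coding exon, and carry in capitals any match to the 5 motifs searched.
A330009N23Rik to Grasp: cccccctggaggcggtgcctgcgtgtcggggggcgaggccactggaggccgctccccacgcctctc
A730020E08Rik to Ccser1: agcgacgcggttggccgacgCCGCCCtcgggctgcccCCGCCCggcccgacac
Gm12063 start: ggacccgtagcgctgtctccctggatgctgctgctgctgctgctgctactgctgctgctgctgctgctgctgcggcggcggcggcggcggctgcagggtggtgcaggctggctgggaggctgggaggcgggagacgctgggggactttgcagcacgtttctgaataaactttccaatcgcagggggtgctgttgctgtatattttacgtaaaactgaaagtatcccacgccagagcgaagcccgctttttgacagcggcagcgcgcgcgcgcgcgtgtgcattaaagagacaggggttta
Gm28050 start: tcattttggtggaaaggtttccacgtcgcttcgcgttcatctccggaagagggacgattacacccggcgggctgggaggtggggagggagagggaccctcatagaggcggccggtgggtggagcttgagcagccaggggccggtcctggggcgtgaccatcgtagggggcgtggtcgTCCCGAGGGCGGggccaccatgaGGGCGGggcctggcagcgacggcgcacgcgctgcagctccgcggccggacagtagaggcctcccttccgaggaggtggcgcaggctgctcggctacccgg

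The motifs were, on both strands, EBF (TCCCNNGGG), T-box (AGGTGTGA), LIM homeobox (TAATTA), E-box (CAGCTG) and GC box (GGGCGG). An EBF match can share bases with a GC box, as it does in the Gm28050 run. The 66-base interval between A330009N23Rik and Grasp held none of the 5 motifs, whereas the 53-base interval between A730020E08Rik and Ccser1 held 2 GC boxes. In the 300-base start windows of the 49 members with a position, 3 (6.12%) held the EBF letters, against 7.48% of the other lncRNAs of the table, 7.73% of 21938 coding genes and 5.2% of 10150 lncRNA genes of the annotation. These were the windows of Gm28050, Gm13716 and Gm26507. GC box letters stood in 21 windows (42.9%), against 47.6% of the other lncRNAs, 43% of coding genes and 17% of all lncRNA genes. The T-box, LIM homeobox and E-box letters were in 1, 3 and 7 windows (2.04%, 6.12% and 14.3%), beside 1.19%, 5.3% and 15.6% of coding genes. These are letter matches in fixed windows and say nothing of binding.

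In the mouse annotation (GENCODE M21) 49 of the 50 transcripts were found, and Gm15525 was not matched. Of the 49, 20 belong to genes classed as lincRNA, 15 as antisense and 6 as processed transcript, and 4 lie in genes annotated there as protein coding (Fcor, Gm8773, RP24-317M4.6 and A830039N20Rik, the last within Kcnma1). The median transcript was 1627 bases long, with 2 exons. Many sit close to coding genes: 7 start within 2 kb of a coding gene on the other strand and run away from it, 21 overlap a coding gene on the opposite strand and 5 overlap one on the same strand. Each was counted once, by the coding gene it overlaps most or the nearest start. Gm21984 thus counts by Asphd1 on the opposite strand, although it also overlaps Kctd13 and Sez6l2 on the same strand. The divergent starts were 14.3% of the members, beside 17% of the other 147 lncRNAs. In 22 members some bases coincide with exons of another coding gene (44.9%, beside 37.4% of the others), and in 8 these are at least 50% of the transcript. Exons of a transcript's own gene were not counted, so the 4 members in genes annotated as protein coding are not among the 22. The library kit does not mark strand, so reads of a lncRNA and of a coding exon over the same bases cannot be told apart.

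The defining markers of CR neurons were mostly higher in Ebf2-EGFP+ cells, with 7, 7 and 8 of the 8 genes called higher at the 3 stages in order and 0 lower. The exception was Ndnf, which had 1.04 ± 0.0565 FPKM in Ebf2-EGFP+ against 1.44 ± 0.126 FPKM at E11.5 in Ebf2-EGFP- cells (SD, n = 2) and was not called there or at E13.5. The 8 CR genes Reln, Trp73, Calb2, Ebf2, Ebf3, Lhx5, Nhlh2 and Ndnf summed to 202 to 1223 FPKM across the 6 Ebf2-EGFP+ libraries and to 13 to 24.1 FPKM across the Ebf2-EGFP- libraries. Genes of other cell types moved with the same contrast. All 8 radial glia, 5 cell cycle and 8 ganglionic eminence or interneuron genes were called lower in Ebf2-EGFP+ cells at every stage. The 6 cortical plate genes went from 55.9 to 58.5 FPKM at E11.5 to 719 to 897 FPKM at E15.5 in Ebf2-EGFP- cells, and stood at 943 to 952 FPKM at E13.5 in Ebf2-EGFP+ cells. The 4 listed of 5 subplate and preplate genes summed to 381 to 390 FPKM at E11.5 in Ebf2-EGFP+ cells and 147 to 244 FPKM at E15.5, and the 5 intermediate progenitor genes to 227 to 242 and 28.3 to 47 FPKM. Tbr1 and Nxph4 made up most of the first sum, and Ctgf, a subplate gene, was called lower in Ebf2-EGFP+ cells at all 3 stages (0.303 against 4.94 FPKM at E11.5), as was Nr4a2 at E13.5. Of the intermediate progenitor genes 1 was called higher at E11.5 (Eomes), and all 5 were called lower at both later stages. The 3 listed erythroid genes stood at 1205 to 2605 FPKM in Ebf2-EGFP- and 31.2 to 88.6 FPKM at E11.5 in Ebf2-EGFP+ cells, and the 5 meninges or fibroblast genes at 108 to 126 and 41.6 to 46.8 FPKM. Endothelial genes (3 of 5 listed) and the only listed microglia gene, Aif1, stayed under 3 FPKM in Ebf2-EGFP+ cells. Aif1 was nevertheless called higher there at E13.5 and E15.5, at 2.9 against 0.699 FPKM at the last stage. The part of these cell types in the lncRNA levels was not tested, and in such bulk samples fewer cells of a type and less RNA per cell cannot be told apart.

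Enrichment was mostly seen early. By the rule, 25 transcripts were enriched at E11.5 alone, 7 at E11.5 and E13.5, 2 at all 3 stages (Gm13716 and Gm12063) and 1 at E11.5 and E15.5 (Gm28050). Another 2 were enriched at E13.5 alone, 6 at E13.5 and E15.5, and 7 at E15.5 alone. In total 35, 17 and 16 transcripts met the condition at the 3 stages in order, and the median ratio over all 50 was 2.24, 1.57 and 1.46. The lower Ebf2-EGFP+ library exceeded the higher Ebf2-EGFP- library for 42, 36 and 31 of the 50, beside 49%, 39.5% and 32% of the whole table. The median level was 3.08 FPKM in Ebf2-EGFP+ against 0.869 FPKM at E11.5 in Ebf2-EGFP- cells, and 4.6 against 2.61 FPKM at E15.5. Just inside the threshold of 2 were A330009N23Rik (2.003), Gm16701 (2.003) and Gm8773 (2.027), and just outside it Meg3 (1.997), Gm16551 (1.981) and Gm3510 (1.974). The heat map of the 50 transcripts shows these groups library by library.

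**Figure D1:**
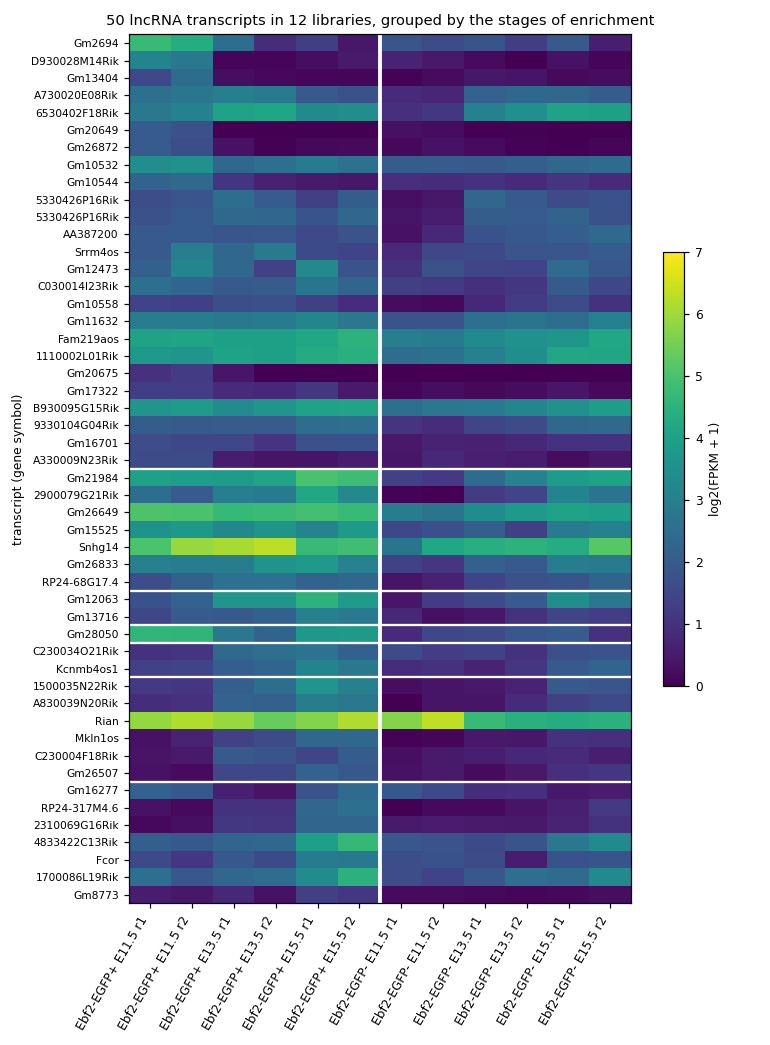
Level of the 50 transcripts (one per line, by gene symbol; log2(FPKM + 1) by colour) in the 12 libraries (columns; r1 and r2 are the 2 libraries of a group), with white lines between the groups of stages in which a transcript was enriched. The 25 transcripts at the top, enriched at E11.5 alone, are brighter in the 2 Ebf2-EGFP+ than in the Ebf2-EGFP- libraries of E11.5, and the 7 at the bottom in those of E15.5.

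Gm28050, a lincRNA on chromosome 5 (chr5:106557739-106574718), had the highest ratio of all members. It measured 23.2 and 23.1 FPKM in the Ebf2-EGFP+ libraries of E11.5, 5.89 and 3.77 FPKM at E13.5, and 12.4 and 12.99 FPKM at E15.5. In Ebf2-EGFP- cells its values were 0.802 and 1.79 FPKM, 2.02 and 2.73 FPKM, and 3.06 and 0.992 FPKM. The populations did not overlap at any stage, and the ratio was 10.5, 1.73 and 4.52. Gm2694, which is divergent from Cbln1, came next with a ratio of 7.05 at E11.5. Its values were 26.1 and 19.2 FPKM in Ebf2-EGFP+ and 2.67 and 2.03 FPKM at E11.5 in Ebf2-EGFP- cells, and 1.44 and 0.359 FPKM against 2.87 and 0.517 FPKM at E15.5. At the last stage its populations overlapped.

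The names Ln-CR1, Ln-CR2, Ln-CR3, Ln-CR5 and Ln-CR6, used for lncRNAs taken as specific to CR neurons, belong to members. Ln-CR1 (Gm26649, chr1:64029463-64032927) was at 32.2 and 30.7 FPKM at E11.5 in Ebf2-EGFP+ cells, 24.6 and 26.2 FPKM at E13.5 and 29.2 and 25.2 FPKM at E15.5. Its Ebf2-EGFP- values went from 6.79 and 5.52 FPKM through 9.49 and 12.7 FPKM to 15.48 and 14.5 FPKM, so the ratio went from 4.54 to 1.76 with no overlap at any stage. All (100%) of its bases coincide with exons of Klf7, a Kruppel-like transcription factor gene on the opposite strand. Ln-CR3 (Gm21984, chr7:126942144-126952873) was at 15.02 and 14 FPKM in Ebf2-EGFP+ and 1.62 and 1.28 FPKM at E11.5 in Ebf2-EGFP- cells, and at 30.8 and 27.1 FPKM against 13.7 and 15.7 FPKM at E15.5. The populations were apart at these stages, and 74.1% of its bases coincide with exons of Kctd13 and Sez6l2 on the same strand.

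Ln-CR5 (Gm13716, chr2:85196932-85198675) and Ln-CR6 (Gm12063, chr11:24076559-24077367) were the transcripts enriched at all 3 stages. Gm13716 had 1.8 and 3.06 FPKM at E11.5 in Ebf2-EGFP+ cells, 2.86 and 3.54 FPKM at E13.5 and 7.26 and 6.41 FPKM at E15.5, against 0.721 and 0.238, 0.368 and 1.04, and 1.73 and 1.41 FPKM in Ebf2-EGFP- cells. Gm12063 had 2.4 and 3.59 FPKM at E11.5, 11.52 and 11.55 FPKM at E13.5 and 22.1 and 13.4 FPKM at E15.5, against 0.339 and 1.33, 2.09 and 3.02, and 10.2 and 6.04 FPKM. Every Ebf2-EGFP+ value of both lay above the Ebf2-EGFP- values of its stage. Ln-CR2 (Gm16701, chr1:166998295-167000841) stayed below the 5 FPKM at E15.5 that the other 4 reached in Ebf2-EGFP+ cells, at 2.13 and 1.88 FPKM against 0.406 and 0.595 FPKM at E11.5 and 2.36 and 2.42 FPKM against 0.98 and 0.988 FPKM at E15.5.

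**Figure D2:**
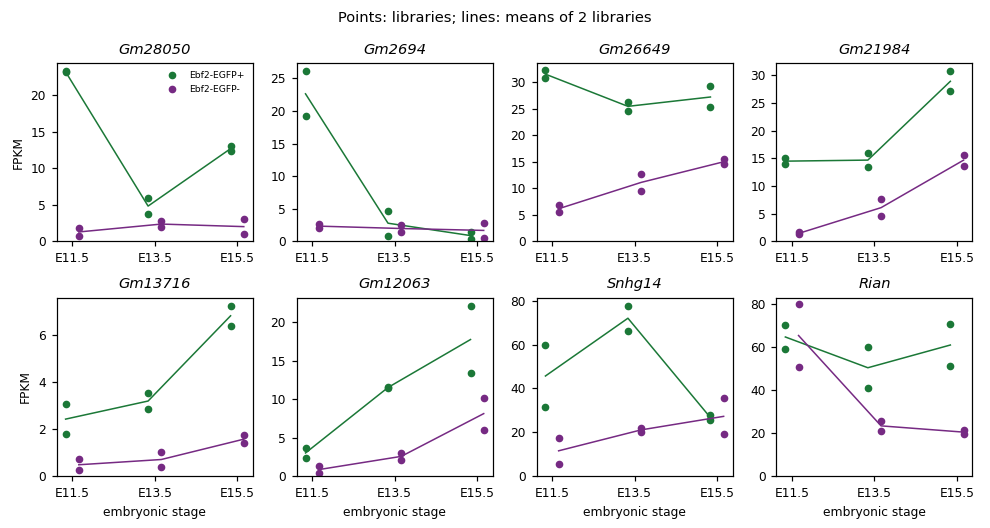
FPKM (vertical axes, each from 0 and with its own scale) of 8 members at the 3 embryonic stages (horizontal axes) in Ebf2-EGFP+ (green) and Ebf2-EGFP- cells (purple); points are libraries and lines join the means of 2 libraries. Gm28050 dips at E13.5 in Ebf2-EGFP+ cells, Gm2694 is high at E11.5 alone, Gm26649 climbs in Ebf2-EGFP- cells, and Gm21984 climbs in both populations.

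A group of 19 members averaged no more than 15 FPKM among Ebf2-EGFP- cells throughout and reached a mean of 5 FPKM or more at E15.5 among Ebf2-EGFP+ cells. Besides Gm28050 and the Ln-CR transcripts Gm26649, Gm21984, Gm13716 and Gm12063, it holds 1500035N22Rik, A830039N20Rik, 4833422C13Rik, Fcor, 1700086L19Rik, 2900079G21Rik, Kcnmb4os1, Gm26833, Gm12473, Gm15525, Fam219aos, Gm10532, B930095G15Rik and Gm11632. The spread between libraries differed widely among them. Gm12473 had 5.69 ± 4.48 FPKM (SD, n = 2) at E15.5 in Ebf2-EGFP+ cells, whereas Fcor had 6.22 ± 0.235 FPKM. Libraries of 1 group thus differed by less than the gap to Ebf2-EGFP- cells for Fcor (2.47 ± 0.066 FPKM) but not for Gm12473 (3.57 ± 1.21 FPKM).

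For members of this group, the coding genes with the most similar levels over the 12 libraries were looked up. Closest to Gm28050 were Tmem163 (Pearson r = 0.958), Nhlh2 (0.955), a transcription factor expressed in CR neurons, and 4930428G15Rik (0.955). Closest to Gm12063 were Lrrtm1 (0.981), Elfn2 (0.980) and Slc7a4 (0.977), and to 1500035N22Rik Adora1 (0.996), an adenosine receptor gene, Lrrn2 (0.990) and Faim2 (0.990). Gm21984 was closest to Sez6l2 (0.997), whose exons it shares, Gm13716 to Lrrc55 (0.977), and Gm26649 to Pde2a (0.993), Klf7 (0.980) and Ina (0.980). These correlations describe 12 libraries that form 6 groups and carry no test. The coding table also lists 17 of the members, as 16 genes, 3 of them under another symbol, with a median r of 0.999 between the entries and a lowest r of 0.75 (Gm16701), and these entries were left out of the ranking.

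The most abundant member at each stage was a transcript of an imprinted locus. Rian, a noncoding RNA of the Dlk1-Dio3 locus that is expressed from the maternal chromosome, had 59.0 and 70.2 FPKM in Ebf2-EGFP+ and 50.7 and 79.9 FPKM at E11.5 in Ebf2-EGFP- cells. At E13.5 it had 59.9 and 40.7 FPKM against 25.6 and 20.96 FPKM, and at E15.5 51.0 and 70.8 FPKM against 19.3 and 21.5 FPKM. The populations overlapped at E11.5 and were apart at the later stages. Meg3, a neighbouring noncoding RNA, missed the threshold at 5.52 ± 1.05 FPKM against 2.27 ± 0.334 FPKM at E15.5 (SD, n = 2). Of 4 coding genes of the locus that were looked up, Dlk1 and Begain are listed. Dlk1, a Notch-like ligand, was lower in Ebf2-EGFP+ cells at all 3 stages. It had 18.2 against 29 FPKM at E11.5 (log2 difference -0.65, SE 0.17, limma adjusted p = 0.00347). At E15.5 both levels were low, at 0.0743 against 0.727 FPKM (-0.68, SE 0.17, limma adjusted p = 0.00442). Begain was higher at all 3 stages (1.19, SE 0.17, limma adjusted p = 0.000151 at E15.5).

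Snhg14, the long host transcript of small nucleolar RNAs in the Prader-Willi and Angelman locus, has 1 transcript among the members and another in the table outside them. The member had 31.5 and 59.9 FPKM at E11.5 in Ebf2-EGFP+ cells, 66.3 and 77.9 FPKM at E13.5 and 25.6 and 27.7 FPKM at E15.5. Its Ebf2-EGFP- values were 5.53 and 17.5 FPKM, 20.3 and 21.9 FPKM, and 19.1 and 35.4 FPKM, so that the populations were apart at the first stages and overlapped at E15.5. Of 6 coding genes looked up at the locus, 5 are listed. Snrpn, Ndn and Magel2 were higher in Ebf2-EGFP+ cells at all 3 stages, with log2 differences at E15.5 of 0.60 (SE 0.13), 1.34 (SE 0.19) and 1.03 (SE 0.20) and limma adjusted p-values of 0.00276, 0.000124 and 0.00125. Ndn encodes Necdin, a growth-restraining protein of postmitotic neurons, and measured 294 ± 41.6 FPKM against 115 ± 8.23 FPKM at E15.5. Atp10a was called lower at E11.5 and E13.5, and Mkrn3 was called lower at E13.5 only (log2 difference -0.47, SE 0.20, limma adjusted p = 0.0464).

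Members named for the strand opposite a coding gene differed in their course. Mkln1os had 0.427 ± 0.218 FPKM in Ebf2-EGFP+ and 0.0765 ± 0.0266 FPKM at E11.5 in Ebf2-EGFP- cells, and 4.02 ± 0.0995 against 0.958 ± 0.0602 FPKM at E15.5. Kcnmb4os1 had its highest ratio at E13.5 (2.43, beside 1.37 at E11.5 and 1.79 at E15.5), with 3.55 ± 0.415 against 0.873 ± 0.389 FPKM, and reached 6.95 ± 1.44 against 3.43 ± 0.629 FPKM at E15.5. Fam219aos was abundant in both populations, at 15.8 ± 0.446 against 6.62 ± 0.471 FPKM at E11.5 and 19.5 ± 3.76 against 14.4 ± 3.5 FPKM at E15.5, where its libraries overlapped. Srrm4os, opposite the gene of the neuronal splicing factor Srrm4, had 4.91 ± 2.85 against 1.32 ± 0.699 FPKM at E11.5 and 1.82 ± 0.233 against 2.85 ± 0.373 FPKM at E15.5, the reverse order.

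Changes between stages within a population are another contrast of the same FPKM values that the rule used. A high ratio at 1 stage and not at another favours a high Ebf2-EGFP+ or a low Ebf2-EGFP- level at that stage. The counts of members that rose or fell, and the size and call of each change, are in part set by the choice of members. Both are given as a description. Changes were called with limma on log2(FPKM + 1) over all 200 lncRNAs, with p-values adjusted over all of them. From E11.5 to E13.5 in Ebf2-EGFP+ cells, 12 of the 50 rose and 11 fell at an adjusted p under 0.05, where 16% of the table rose and 21% fell. The median log2 change was 0.10 for the members and -0.06 for the table. The largest falls were those of D930028M14Rik (-2.85, SE 0.17), Gm2694 (-2.84, SE 0.54), Gm28050 (-2.08, SE 0.34), Gm20649 (-1.88, SE 0.11) and Gm13404 (-1.81, SE 0.23). D930028M14Rik, which overlaps Pou2f2, went from 7.93 and 5.91 FPKM to 0.0869 FPKM in both libraries. Gm20649, of which 79.2% coincides with exons of Onecut1, went from 3.07 and 2.34 FPKM to values listed at or next to 0. The largest rises were those of Gm12063 (1.66, SE 0.34), C230034O21Rik (1.47, SE 0.21), C230004F18Rik (1.46, SE 0.21), Gm26507 (1.24, SE 0.16) and A830039N20Rik (1.22, SE 0.20).

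From E13.5 to E15.5 in Ebf2-EGFP+ cells, 16 members rose and 4 fell, where 18.5% of the table rose and 9.5% fell. The rises were led by 4833422C13Rik (1.98, SE 0.26), Gm16277 (1.63, SE 0.23), 1700086L19Rik (1.52, SE 0.41), RP24-317M4.6 (1.42, SE 0.19) and Gm28050 (1.25, SE 0.34). The members that fell were Snhg14 (-1.40, SE 0.47), Srrm4os (-1.11, SE 0.33), A730020E08Rik (-1.11, SE 0.19) and 6530402F18Rik (-0.70, SE 0.21). Gm28050 and Gm16277 had fallen over the first interval and rose over the second. Gm16277, opposite the GDNF receptor gene Gfra1, read 3.62 and 2.81, 0.521 and 0.298, and 2.49 and 4.45 FPKM at the 3 stages. The count of 20 was the least stable: it was 9 or 11 without the first or second Ebf2-EGFP+ library of E13.5, 7 or 12 without the first or second of E15.5, and 11 with a pseudocount of 0.1. With only the 2 groups in the fit, limma made 0 calls, with 23 members at an unadjusted p under 0.05. The call on Snhg14 was lost in 11 of 18 alternatives, those on Srrm4os and Gm28050 in 5 each, that on 6530402F18Rik in 6 and that on 1700086L19Rik in 4.

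Over the whole interval from E11.5 to E15.5 in Ebf2-EGFP+ cells, 19 members rose and 12 fell, where 26% of the table rose and 25% fell. 4833422C13Rik, opposite Ssbp2, rose most, from 3.35 and 2.84 FPKM to 14.4 and 24.1 FPKM (log2 change 2.26, SE 0.26). It was followed by Gm12063 (2.21, SE 0.34), 1500035N22Rik (2.2, SE 0.23), RP24-317M4.6 (2.18, SE 0.19) and 2310069G16Rik (2.06, SE 0.14). Gm2694 fell most (-3.68, SE 0.54), followed by D930028M14Rik (-2.59, SE 0.17), Gm13404 (-1.90, SE 0.23), Gm20649 (-1.88, SE 0.11) and Gm10544 (-1.86, SE 0.17). Gm20675, which is divergent from Ebf2, was among those that fell: it had 1.01 and 1.37 FPKM at E11.5 in Ebf2-EGFP+ cells and 0.329 FPKM in 1 library of E13.5, and was listed at 0 in all other libraries.

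In Ebf2-EGFP- cells most called members rose. From E11.5 to E15.5, 28 rose and 3 fell, where 37% of the table rose and 25% fell (62% in either direction), and the median log2 change was 0.84 for the members and 0.31 for the table. The rises were led by 6530402F18Rik (2.96, SE 0.21), 2900079G21Rik (2.86, SE 0.30), Gm21984 (2.68, SE 0.24), Gm12063 (2.33, SE 0.34) and AA387200 (1.68, SE 0.20). 6530402F18Rik went from 0.975 and 1.19 FPKM to 15.46 and 14.8 FPKM, while its Ebf2-EGFP+ values were 5.85 and 7.4 FPKM at E11.5 and 9.0 and 10.1 FPKM at E15.5. Rian (-1.60, SE 0.30), Gm16277 (-1.24, SE 0.23) and Gm20649 (-0.28, SE 0.11) fell, the last of them a call lost in 13 of 17 alternatives. The summed cortical plate markers were higher, and the cell cycle markers lower (727 to 831 and 116 to 181 FPKM), in the later of the same libraries, and their part was not tested.

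**Figure D3:**
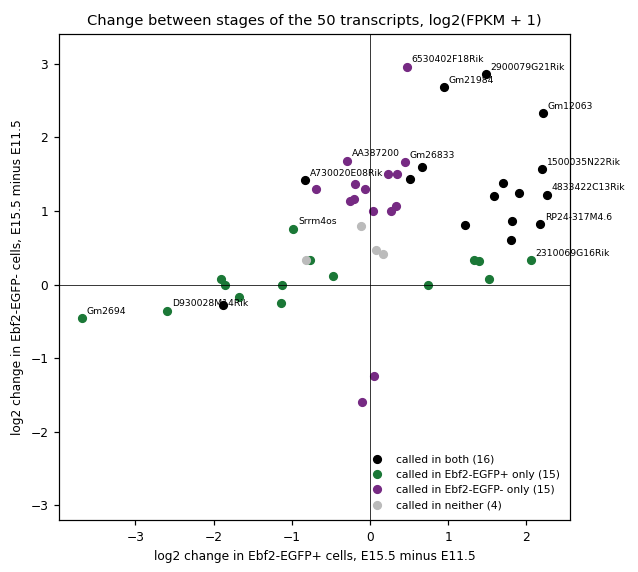
Log2 change of each of the 50 transcripts from E11.5 to E15.5 in Ebf2-EGFP+ cells (horizontal) and in Ebf2-EGFP- cells (vertical), on the scale log2(FPKM + 1); colours give the population in which limma called the change. Most points lie above the horizontal zero line, with 16 called in both populations, 15 in Ebf2-EGFP+ cells alone, 15 in Ebf2-EGFP- cells alone and 4 in neither.

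Most of the listed coding genes beside the members were higher in Ebf2-EGFP+ cells on the first 2 days, and at E15.5 the number depended on how replicates were treated. The rule used no entry of the coding table. For 17 of the 32 listed genes, however, exons share bases with a member, so their reads are not separate from those behind the rule. A neighbour was the coding gene overlapping the lncRNA or, failing that, the one with the nearest start. The coding table of 4859 genes, which the authors chose on these libraries, lists 32 neighbours. It holds a neighbour or the own gene for 34 of the 49 members with a position. Neighbours outside it have no value here, so the counts cover only genes that the authors chose for differences. At E11.5, 27 of the 32 were higher in Ebf2-EGFP+ cells and 2 lower at a limma adjusted p under 0.05, where 36.8% of the table was higher and 44.9% lower. At E13.5, 26 were higher and 0 lower by limma (28 of either sign had an unadjusted p under 0.05), where 32.1% and 43.5% of the table were called. At E15.5, 14 were higher and 1 lower, where 25.8% and 31.6% were called. With same-numbered libraries as a replicate block the last count became 20 higher and 3 lower, beside 31.4% and 38.9% of the table. The block added Bcl9l, Cbln1, Cdr1, Fbn2, Map2 and Npr2 as higher and Grasp and Ntng2 as lower at E15.5, and Cdr1 as higher and Gfra1 as lower at E13.5, and it ended none of the neighbours' calls. The median log2 difference of the neighbours was 1.68, 0.80 and 0.44 at the 3 stages, and that of all coding genes -0.19, -0.19 and -0.11.

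For 17 neighbours the exons share bases with the member, so their reads are not separate from those of the lncRNA. Among the 15 that share none, 14, 12 and 5 were higher at the 3 stages and 0, 0 and 1 lower by limma, with medians of 1.92, 0.92 and 0.40. The higher ones were 93.3%, 80% and 33.3% of the 15, beside 36.8%, 32.1% and 25.8% of all coding genes. Called lower were 44.9%, 43.5% and 31.6% of all coding genes. At an unadjusted p under 0.05 there were 14, 13 and 6 of the 15. Ebf2 differed most at E11.5. It had 61.2 and 49.1 FPKM in Ebf2-EGFP+ against 1.17 and 0.952 FPKM at E11.5 in Ebf2-EGFP- cells (log2 difference 4.76, SE 0.25, limma adjusted p = 6.25e-08) and 2.83 and 5.14 against 0.103 and 0.0643 FPKM at E15.5 (2.16, SE 0.25). Ebf2 regulatory sequence also drives the reporter that sorted these cells, and whether the BAC spans Gm20675 is not given in the sources used here. Barhl2, a homeobox transcription factor gene near Gm26872, measured 36.1 and 30.4 against 1.55 and 4.0 FPKM at E11.5 (3.26, SE 0.27) and 4.21 and 4.47 against 0.0653 and 0.0498 FPKM at E15.5 (2.34, SE 0.27). Gm26872 itself was at 0.121 ± 0.0148 FPKM (SD, n = 2) in Ebf2-EGFP+ cells at that stage.

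Other pairs with no shared exon bases differed in their course. Ccser1, whose start is 54 bases from that of A730020E08Rik, had 23.4 and 22.4 against 2.02 and 2.29 FPKM at E11.5 (log2 difference 2.92, SE 0.15) and 8.66 and 7.53 against 8.74 and 8.49 FPKM at E15.5, where it was not called (-0.08, SE 0.15). A730020E08Rik had 5.38 ± 0.542 against 0.741 ± 0.0666 FPKM and 2.59 ± 0.391 against 3.68 ± 0.729 FPKM at these stages (SD, n = 2), so neither gene of the pair stood higher at E15.5 in Ebf2-EGFP+ cells. Cbln1, which encodes a secreted synapse organiser, was higher at E11.5 (2.29, SE 0.23) and E13.5 (1.15, SE 0.23) and, at E15.5, not called without the replicate block (0.40, SE 0.23, limma adjusted p = 0.149) but called with it (limma adjusted p = 0.0407), while the level of Gm2694 went close to that in Ebf2-EGFP- cells. Grasp, which encodes a scaffold protein for glutamate receptors, starts 67 bases from A330009N23Rik and was higher at E11.5 (1.72, SE 0.18). At E15.5 it was called lower with the replicate block (-0.38, limma adjusted p = 0.0336) and not called without it (limma adjusted p = 0.0922). Scrt2, a neuronal zinc-finger repressor gene near AA387200, was higher at E11.5 (2.85, SE 0.26) and lower at E15.5 (-1.31, SE 0.26, limma adjusted p = 0.00131). Bcl11a, a zinc-finger transcription factor gene whose start is 1497 bases from that of Gm12063, was called at E11.5 (1.44, SE 0.21) and E13.5 (0.81, SE 0.21) but not at E15.5 (0.19, SE 0.21). Fam78b, beside Gm16701, and Tmem178b, beside Gm26833, were higher at all 3 stages (2.66, 1.18 and 0.82, and 2.32, 1.37 and 0.73). The last of these calls was lost without the first Ebf2-EGFP- library of E15.5 (0.39, limma adjusted p = 0.171) and without the second Ebf2-EGFP+ library (0.65, limma adjusted p = 0.0779).

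Among neighbours with shared exon bases, Klf7 (2.13, 1.14 and 0.84 at the 3 stages, SE 0.17), Lrrc55 opposite Gm13716 (1.42, 1.65 and 1.85, SE 0.16), Arpp21 opposite 2900079G21Rik (1.96, 1.51 and 1.20, SE 0.27) and Kcnmb4 opposite Kcnmb4os1 (0.83, 1.06 and 1.16, SE 0.16) were higher at every stage. Lrrc55 encodes an auxiliary subunit of the BK potassium channel. Map2, which encodes a dendritic microtubule protein, was higher at E11.5 (2.22, SE 0.16) and E13.5 (0.80, SE 0.16) and, at E15.5, called with the replicate block (0.28, limma adjusted p = 0.0428) but not without it (limma adjusted p = 0.155). Sybu, which encodes a protein of axonal transport, was not called at E11.5 (0.13, SE 0.19) and was higher at E13.5 (2.19, SE 0.19) and E15.5 (2.57, SE 0.19), the stages at which its opposite-strand partner 2310069G16Rik stood at 1.21 and 1.08 and then 3.83 and 3.9 FPKM in Ebf2-EGFP+ cells. The 2 neighbours that were lower at E11.5 were Fat4 (-0.67, SE 0.21) and Fbn2 (-0.84, SE 0.25), and both calls were lost when libraries were rescaled by the median of ratios. The difference between the populations was smaller at E15.5 than at E11.5 for 21 of the 32 neighbours and larger for 5 (limma interaction), where 27.7% and 32% of the table were called. In Ebf2-EGFP- cells 23 of the 32 rose from E11.5 to E15.5 and 5 fell, where 37.7% and 47.6% of the table did, and in Ebf2-EGFP+ cells 11 rose and 10 fell, where 33.3% and 42.1% did.

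**Figure D4:**
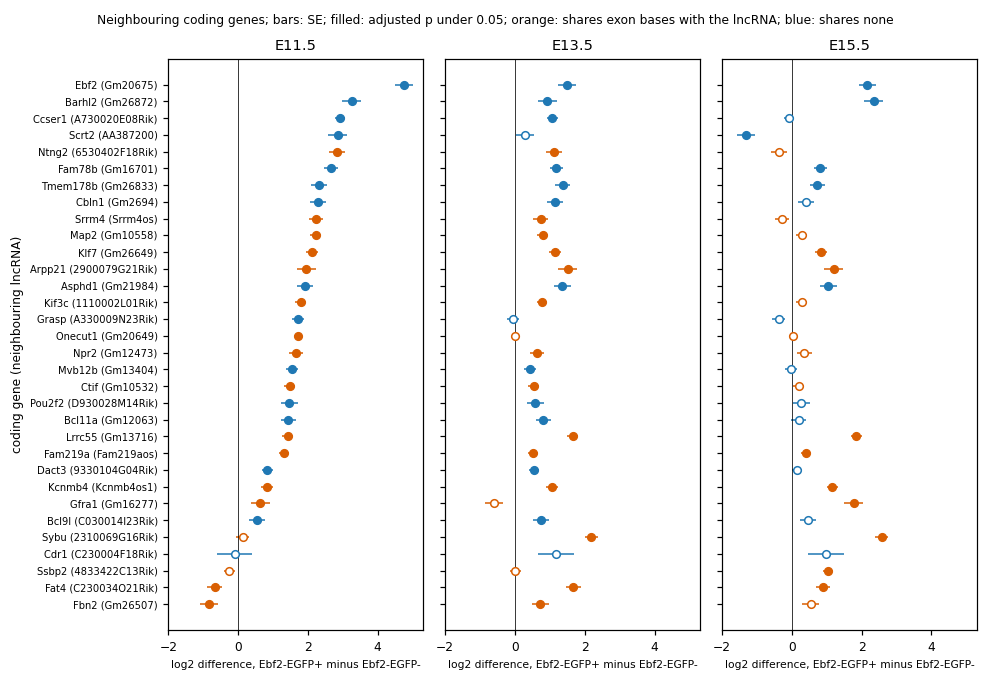
Log2 difference between Ebf2-EGFP+ and Ebf2-EGFP- cells (horizontal axes, log2(FPKM + 1) scale, limma estimate with its SE) for the 32 neighbouring coding genes (vertical axis) at each of the 3 stages. Most genes lie right of 0 at E11.5, with Ebf2 farthest at 4.76, and the median moves from 1.68 to 0.44 by E15.5.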

How the data were processed

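Polyadenylated RNA of FACS-sorted Ebf2-EGFP+ and Ebf2-EGFP- cortical cells (E11.5, E13.5, E15.5, 2 libraries a group, 12 in all) had been sequenced with a kit that does not mark strand. The authors deposited FPKM values, made per the labels and the study's methods by mapping to mm10 with TopHat 2.0.8b and quantifying with Cufflinks 2.2.0, in a lncRNA table (200 transcripts) and a coding table (4859 genes), both chosen by them for differences between these libraries. In each of these, 15 columns of group means, fold changes, p-values and q-values were not used, and 0 columns of sample values were left out. FPKM carry no counts, so the depth behind a value is unknown and no counting interval can be given.

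The members and all gene lists were chosen with earlier results of these data known. limma 3.58.1 (R 4.3.3) was run on log2(FPKM + 1) with 1 mean per group, all 12 libraries, an intensity trend, no filter on low values and Benjamini-Hochberg adjustment over the whole table. The procedure was also run on simulated data with independent noise in each library. That simulation leaves out the joint deviation of same-numbered libraries given below. Fold changes on this scale understate changes of low genes. With 2 libraries a group, an exact permutation test could not reach 0.05, and none was made. Replicates are separate samples of pooled embryos per the study. Same-numbered libraries of the 2 populations deviated together (r = 0.265, 0.385 and 0.435 for lncRNAs and 0.431, 0.534 and 0.431 for coding genes at the 3 stages), so the numbers were taken as pairs and a replicate block was tried.

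Named were members averaging no more than 15 FPKM among Ebf2-EGFP- cells throughout and 5 FPKM or more at E15.5 among Ebf2-EGFP+ cells, members with an Ln-CR name, enriched at all stages, of imprinted loci or named as opposite strands, the 3 on each side of the threshold, the 3 most abundant per stage, the 5 called members with the largest change in each direction per stage contrast, and their neighbours. Gene positions came from GENCODE M21 on GRCm38, and start windows (250 bases before to 50 after the start) and intervals from the RefSeq copy of that genome. The sequence of some intervals is not reported here. A listed gene that is the member's own gene was not counted as a neighbour. Alternatives were a pseudocount of 0.1, median-of-ratios scaling, a mean FPKM of at least 1, no trend, only the compared groups, the replicate block, each library left out, a neighbour limit of 100 kb, enrichment required in both libraries and, chosen after seeing the data, only features without shared exon bases.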

Additional observations from a re-analysis of the deposited data

Results flagged for a closer look

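For 6 members every Ebf2-EGFP+ library moved one way and every Ebf2-EGFP- library the other between E11.5 and E15.5; the difference of the 2 log2 changes was not tested, because the rule used these levels. It was -2.25 for A730020E08Rik (-0.83 in Ebf2-EGFP+ and 1.42 in Ebf2-EGFP- cells), -1.98 for Snhg14 (-0.69 and 1.30), -1.97 for AA387200 (-0.29 and 1.68), -1.74 for Srrm4os (-0.98 and 0.76), -1.37 for Gm26649 (-0.21 and 1.17) and -1.11 for Gm10532 (-0.77 and 0.34). The change of Snhg14 in Ebf2-EGFP- cells was 0.55 (limma adjusted p = 0.286) without the first Ebf2-EGFP- library of E11.5 and 0.87 (limma adjusted p = 0.202) without the second of E15.5.

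For 26 of the 32 neighbouring coding genes the difference between the populations changed from E11.5 to E15.5 by limma's interaction term (adjusted p under 0.05 over 4859 genes). Among all 4859 coding genes the difference was called as moving away from Ebf2-EGFP+ cells in 27.7% and towards them in 32%. On the log2 scale the difference moved away from Ebf2-EGFP+ cells most for Scrt2 (-4.16, SE 0.37, adjusted p = 9.11e-06), Ntng2 (-3.21, SE 0.32, adjusted p = 1.74e-05) and Ccser1 (-3.01, SE 0.21, adjusted p = 2.49e-06). Ebf2 changed by -2.60, Srrm4 by -2.52, Grasp by -2.10, Map2 by -1.94, Cbln1 by -1.90, Fam78b by -1.84, Onecut1 by -1.68, Tmem178b by -1.59, Mvb12b by -1.56 and Kif3c by -1.52. Npr2 changed by -1.31, Klf7 by -1.29, Ctif by -1.28, Bcl11a by -1.25, Pou2f2 by -1.20, Fam219a by -0.91, Asphd1 by -0.88 and Dact3 by -0.70. It moved towards Ebf2-EGFP+ cells for Sybu (2.43, SE 0.27, adjusted p = 3.7e-05), Fat4 (1.56), Fbn2 (1.38), Ssbp2 (1.28) and Gfra1 (1.13). Of these, Klf7, Map2, Srrm4, Ntng2, Onecut1, Kif3c, Ctif, Npr2, Fam219a, Sybu, Fat4, Fbn2, Ssbp2 and Gfra1 share exon bases with the member beside them.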

How the results depend on the processing

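Under the alternatives none of the 137 named results put through them changed direction: of 2460 values, 2329 kept their side of the threshold and 131 lost significance. The interaction terms were fitted in the main setting only. They and the coding genes looked up at the imprinted loci are not among the 137. The number of members was 86 with a pseudocount of 0.1, including all 50, and 49 to 59 when a library was left out. Changes of members from E13.5 to E15.5 in Ebf2-EGFP+ cells (20 called) numbered 11 with a pseudocount of 0.1 and 0 with only the compared groups fitted by limma (23 at an unadjusted p under 0.05), and 7 to 21 when a library was left out; without the first or second Ebf2-EGFP+ library they were 9 and 11 (E13.5) and 7 and 12 (E15.5). The other leave-one-out ranges were 21 to 25 of 23 called (E11.5 to E13.5), 26 to 31 of 31 (E11.5 to E15.5) and 29 to 33 of 31 in Ebf2-EGFP- cells, and for neighbours 25 to 29 of 29, 19 to 28 of 26 and 14 to 16 of 15. Where a library was left out of a compared group, the lone one was assumed to vary like the other groups.

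Restricting to the 27 members with a position and no bases shared with exons of another coding gene gave 13, 10, 17 and 14 called changes in the order above, and restricting to the 15 such neighbours 14, 12 and 6, since fewer features were tested. The replicate block raised the neighbours called at E15.5 from 15 to 23 by adding 8 calls, moved no other count by over 1.5 times, and among named results ended the call on Gm20649 in Ebf2-EGFP- cells (limma adjusted p = 0.0508). Median-of-ratios scaling moved the median of all features by 0.02 to 0.31 on the log2 scale. Depth is unknown for FPKM, so what it limits could not be given; the cause of these changes was not tested.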

Other observations

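Of the members, 3 lie in or opposite genes of the BK potassium channel, a calcium- and voltage-gated channel that shapes action potentials; this group was chosen after its values were seen. A830039N20Rik lies in Kcnma1, the pore-forming subunit, Kcnmb4os1 opposite Kcnmb4 and Gm13716 opposite Lrrc55, both auxiliary subunits. A830039N20Rik is annotated as a transcript of Kcnma1 itself, so the values of Kcnma1 are not separate from those that chose it and are given without a test. Kcnma1 measured 1.14 ± 0.0317 FPKM in Ebf2-EGFP+ against 0.396 ± 0.104 FPKM at E11.5 in Ebf2-EGFP- cells and 4.62 ± 0.998 against 1.49 ± 0.782 FPKM at E15.5 (SD, n = 2). Kcnmb4 measured 29.4 ± 4.02 against 12.6 ± 0.745 FPKM and Lrrc55 10.1 ± 0.991 against 2.08 ± 0.393 FPKM at E15.5. From E11.5 to E15.5 Kcnmb4 and Lrrc55 rose by limma in Ebf2-EGFP+ cells (log2 changes 1.52 and 1.65) and in Ebf2-EGFP- cells (1.20 and 1.22). Both share exon bases with the lncRNA opposite them, so their reads are not separate from those of the members.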
